A study of Mus musculus with 8 samples.

Results

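Sphingosine-1-phosphate (S1P) is a lipid signal made inside cells and read by receptors on their surface. The genes described here are 7 of the 19938 genes measured: the receptors S1pr1, S1pr2 and S1pr3, the kinases Sphk1 and Sphk2, the lyase Sgpl1 and the transporter Spns2. They were chosen by symbol from their known roles in this pathway, with earlier results of these data known. Each was measured by 1 probe set that carries its symbol alone. Their RNA was followed across 4 pools of mouse pancreatic bud RNA.

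As background, sphingosine kinases phosphorylate sphingosine to S1P, phosphatases reverse that step, and the lyase breaks S1P down for good. S1P leaves endothelial cells through Spns2 and red cells through Mfsd2b, so that blood and lymph hold far more of it than tissue does, and G protein-coupled receptors read it from outside. In the mouse, S1pr1 on endothelial cells is needed for vessels to mature. In the mouse pancreatic bud, S1P brought by the circulation has been linked to growth of the mesenchyme around the epithelium.

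Both fresh pools came from buds of e12.5 embryos: the VEGF pool from 3 embryos with Pdx1-tTA and TET-VEGF, and the control pool from 3 littermates with Pdx1-tTA alone. Both therefore carried the tetracycline transactivator driven by the promoter of Pdx1, a gene of the pancreatic epithelium, and the VEGF pool added a VEGF transgene under its control. The other pools came from wild-type buds of the same stage, explanted and cultured for 2 days with VEGFR2i, an inhibitor of VEGF receptor 2, or with its vehicle, with 5 buds pooled per condition. Every pool was put on 2 arrays, the second of them a technical repeat, so each condition is 1 sample and no test of a condition exists. SDs (n = 2 arrays) and the ranges in brackets, which span the 4 pairs of arrays, measure technical error only.

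Values are log2 expression as the authors normalized it. The size rule calls a gene higher or lower where its pool means are 1.5-fold apart or more, which is 0.58 in log2 units, and the arrays of the pools do not overlap. The pancreatic marker Pdx1 lay between 6.26 and 7.02 on the bud arrays and between 8.37 and 8.49 on the explant arrays, well above the lower quartile of gene means, 3.34. Endothelial genes go against the explant labels: Cdh5, the cadherin of endothelial junctions, was at 8.65 and 8.67 in the pool labelled VEGFR2i and at 4.73 and 4.40 in the pool labelled vehicle. An inhibitor of the main endothelial VEGF receptor should lower such genes. All directions given for the explants follow the labels as they stand and say nothing of what the inhibitor did.

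The receptors S1pr1 and S1pr3 were higher in the explant pool labelled VEGFR2i than in the pool labelled vehicle, by 4.00-fold and 1.72-fold, and S1pr2 differed by 1.23-fold. The kinases, the lyase and the transporter differed by at most 1.09-fold either way in the same comparison. In the fresh buds no member reached the size rule, and S1pr1 came nearest, at 1.35-fold the control level. By the size rule 2 of the 7 members were called in the explants, where 2.19% of all genes were called, and 0 of 7 in the buds, where 1.48% were. The median difference of the members was 0.13 in the explants and -0.02 in the buds, against a median of 0.00 over all genes in each.

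**Figure D1:**
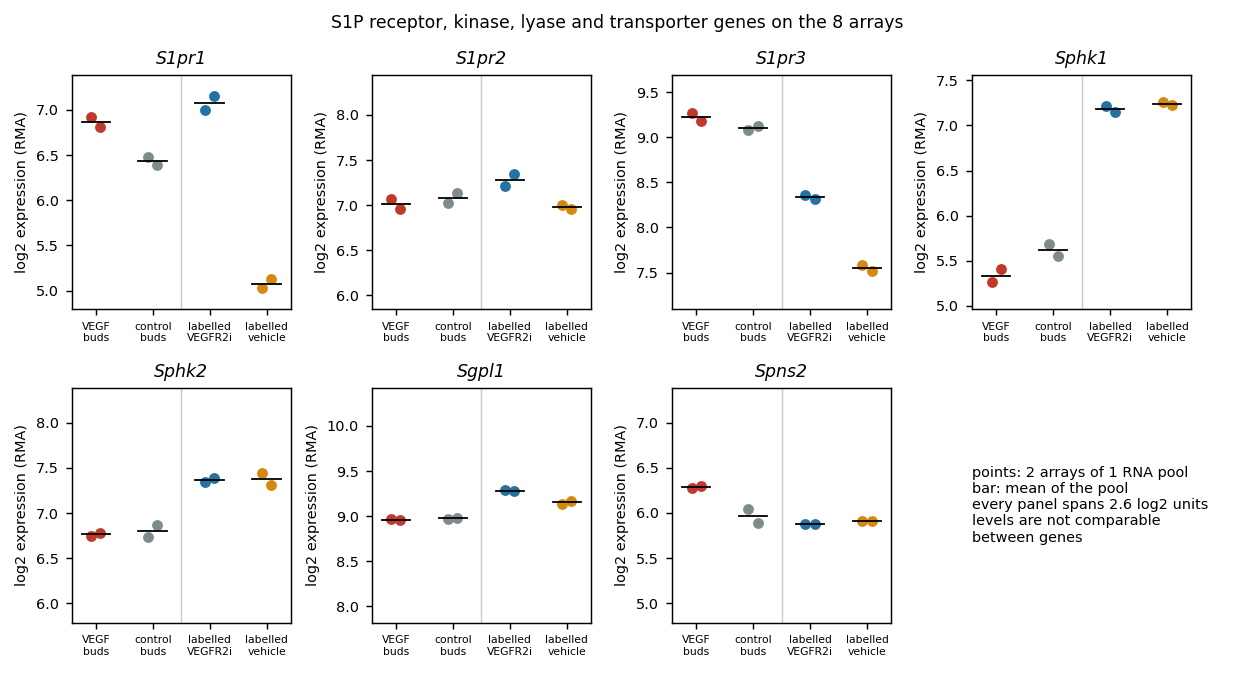
Log2 expression of each of the 7 genes on the 8 arrays, with 2 points per pool for its arrays and a bar for the pool mean; the vertical line separates fresh buds from explants, and every panel spans the same height. S1pr1 lay at 5.03 and 5.12 in the pool labelled vehicle and at 6.39 or above on all other arrays, while Sphk1 lay at 5.69 or below on all bud arrays and at 7.15 or above on all explant arrays.

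S1pr1 (probe set 10501586), the receptor best known for keeping endothelial junctions closed, was read at 6.999 and 7.16 on the arrays labelled VEGFR2i and at 5.03 and 5.12 on those labelled vehicle. The pools did not overlap, and the lower of the arrays labelled VEGFR2i lay 1.87 above the higher of the arrays labelled vehicle. The difference of 2.00 [1.87, 2.13] held rank 22 from the top among 19938 genes. In the fresh buds S1pr1 was at 6.92 and 6.81 in the VEGF pool and at 6.48 and 6.39 in the control pool. Here too both VEGF arrays lay above both control arrays, and the difference was 0.43 [0.32, 0.54], rank 249 from the top. Over the 4 pools the order was the pool labelled VEGFR2i (7.08 ± 0.11, SD), VEGF (6.87 ± 0.08), control (6.43 ± 0.07) and the pool labelled vehicle (5.08 ± 0.07), with no overlap between neighbours, although the first and last steps of that order set values across the bud and explant arrays.

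Endothelial markers moved with S1pr1 in both comparisons. In the explants all 12 of 12 were higher in the pool labelled VEGFR2i, with a median difference of 2.42, and their summed level ran from 11.16 to 11.21 on its arrays against 8.68 to 8.76 on those labelled vehicle (log2 of the sum). S1pr1 differed by less than 8 of these 12 markers and by more than the other 4, which places it inside their range of 1.02 to 4.10. In the buds 4 of 12 were higher by the size rule (Cd34, Kdr, Erg and Emcn), none of the 12 had a negative difference, and the median was 0.54. Their summed level was 12.1 to 12.2 in the VEGF pool and 11.5 in the control pool, and 10 of the 12 differed by more than S1pr1. Other lists moved as well. In the buds red cell markers had a median of 0.97, with 6 of 10 differing by more than S1pr1 and 4 by less. Mesothelial markers there had a median of 0.73. In the explants all 11 markers of mural cells, which surround vessels, and all 14 of leukocytes differed by less than S1pr1. So did 9 of 10 red cell markers. The part of these cell types in the S1pr1 values was not tested. In such bulk RNA fewer cells of a type and less RNA per cell cannot be told apart.

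S1pr3 (probe set 10405179), a receptor of smooth muscle and other cells that couples to several G protein classes, was read at 8.36 and 8.31 on the arrays labelled VEGFR2i and at 7.59 and 7.52 on those labelled vehicle. The pools did not overlap, and the difference was 0.78 [0.73, 0.84], rank 207 from the top. In the buds S1pr3 was at 9.27 and 9.18 in the VEGF pool and at 9.07 and 9.12 in the control pool. These arrays did not overlap either, but the difference of 0.13 [0.06, 0.20] stayed short of the size rule. Unlike S1pr1, S1pr3 was lower in both explant pools than in both bud pools, by differences of -1.55 for the pool labelled vehicle and -0.76 for the pool labelled VEGFR2i against control.

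Markers of mural cells, the pericytes and smooth muscle around vessels, moved with S1pr3 in the explants. Of 11 such markers 7 were higher in the pool labelled VEGFR2i, led by Rgs5 (1.26), Pdgfrb (1.15) and Abcc9 (1.07). Of the 11, 10 had positive differences and 1, Anpep (-0.44), a negative one without overlap of arrays. The mural markers had a median of 0.75 and a summed level of 12.7 to 12.8 against 12.2. S1pr3 lay in the middle of them, with 5 markers differing by more and 6 by less. In the buds the mural median was 0.05 with 0 markers higher and 1 lower, Anpep (-0.77). There 6 mural markers had positive and 5 had negative differences. Among the positive ones Tagln (1.496-fold) and Acta2 (1.485-fold) fell just short of the size rule, without overlap of arrays. All 12 endothelial markers differed by more than S1pr3 in both comparisons. Of 10 mesenchymal markers none reached the size rule in the explants, their median was 0.20, and all 10 differed by less than S1pr3. Leukocyte markers also moved, 11 of 14 being higher in the pool labelled VEGFR2i with a median of 0.84. Their summed level was 10.4 against 9.58 to 9.59. S1pr3 lay in the middle of the leukocyte markers as well, with 8 differing by more and 6 by less. The part of these cell types in the S1pr3 values was not tested.

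S1pr2 (probe set 10591412), the receptor best known for coupling to G12 and G13 proteins, varied least among the 3 receptors. It was read at 7.21 and 7.34 on the arrays labelled VEGFR2i and at 7.01 and 6.95 on those labelled vehicle, which did not overlap and differed by 0.29 [0.20, 0.39]. In the VEGF pool it was at 7.07 and 6.96 and in the control pool at 7.02 and 7.13, so that these arrays overlapped, with a difference of -0.06 [-0.17, 0.05]. All 12 endothelial markers differed by more than S1pr2 in either comparison. Across the 4 pools only the step from the pool labelled VEGFR2i down to control separated neighbours without overlap.

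Upstream sequence is shown for S1pr3, which reached the size rule, and for S1pr2, which did not, as the receptors whose windows can be set side by side; S1pr1 is not in the promoter table. Each run holds the 250 bases before the RefSeq start of the gene in build GRCm38.p6, at chr13:51408368-51408617 on the plus strand for S1pr3 and at chr9:20976794-20977043 on the minus strand for S1pr2, written 5′ to 3′ along the gene. Capitals mark matches, on either strand, to motifs chosen with the expression values known: CCGGAA (the core of ETS factors), AGATAA (factors of the GATA family), CACCC (KLF factors), GGAATG (TEAD factors), GGGCGG (SP1) and TATAAA (the TATA box).
S1pr3: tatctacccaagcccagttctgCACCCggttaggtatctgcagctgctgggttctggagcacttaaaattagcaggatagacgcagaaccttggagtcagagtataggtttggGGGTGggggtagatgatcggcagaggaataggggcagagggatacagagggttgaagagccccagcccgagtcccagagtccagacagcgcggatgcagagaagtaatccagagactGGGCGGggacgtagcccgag
S1pr2: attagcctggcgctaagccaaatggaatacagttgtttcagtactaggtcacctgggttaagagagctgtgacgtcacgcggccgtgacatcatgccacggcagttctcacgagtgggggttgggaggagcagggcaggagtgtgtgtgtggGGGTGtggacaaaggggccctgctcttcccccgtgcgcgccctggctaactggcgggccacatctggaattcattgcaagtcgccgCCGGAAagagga

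The S1pr3 window held a CACCC on each strand, 228 and 137 bases before the start, and 1 GGGCGG at 20 bases before it. The S1pr2 window held 1 CACCC on the minus strand, at 98 bases, and 1 CCGGAA at 12 bases before the start. No marked matches overlapped. Of 32851 windows of this length, 52.0% held CACCC, 32.7% GGGCGG and 12.03% CCGGAA on either strand. The motifs of GATA and TEAD factors and the TATA box, held by 9.99%, 12.6% and 12.4% of windows, did not occur in either run. These are matches of letters only. The share of G and C was 56.4% in the S1pr3 window and 59.2% in the S1pr2 window, against a median of 52.4%.

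Sphk1 (probe set 10382802), the inducible kinase of the cytosol, did not reach the size rule in either pair of pools. In the buds it was at 5.27 and 5.40 in the VEGF pool and at 5.69 and 5.56 in the control pool, which did not overlap, and the difference was -0.29 [-0.42, -0.15], rank 675 from the bottom. On the explant arrays it was at 7.22 and 7.15 in the pool labelled VEGFR2i and at 7.26 and 7.22 in the pool labelled vehicle, barely without overlap, with a difference of -0.06 [-0.11, -0.003]. Markers of the pancreatic epithelium moved with Sphk1 in the buds: 5 of 10 were lower in the VEGF pool, the median was -0.60, and the summed level was 11.4 to 11.5 against 11.97. Of the 10, 9 had lower differences than Sphk1 in the buds and 1 a higher one. In the explants the epithelial markers had a median of -0.19, with 0 of 10 past the size rule. All 3 markers of neural crest, glia and neurons were negative in the buds too, with a median of -0.35. Their median in the explants was 0.08. The part of these cell types in the Sphk1 values was not tested.

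Across the sets Sphk1 had the largest upward step of the members. The pool labelled vehicle lay 1.62 above control and the pool labelled VEGFR2i 1.56 above it. The median over all genes was 0.17 in each case. Epithelial markers had medians of 1.47 and 1.35, and markers of neural crest, glia and neurons 0.69 and 0.85. Sphk2 (probe set 10563362), the kinase found in the nucleus and other organelles, lay 0.57 and 0.56 above control in the same pools. The bud and explant arrays may have been normalized separately, and the sets differ in genotype and culture, so these steps compare levels across sets and name no cause.

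Sphk2 did not separate the pools of either pair. It was at 6.75 and 6.78 in the VEGF pool and at 6.73 and 6.87 in the control pool, with overlapping arrays and a difference of -0.04 [-0.12, 0.04]. In the pool labelled VEGFR2i it was at 7.35 and 7.39 and in the pool labelled vehicle at 7.44 and 7.31, again overlapping, with a difference of -0.01 [-0.09, 0.07].

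Sgpl1 (probe set 10369413), the lyase that ends the pathway, had gaps of at most 0.03 between the arrays of a pool. It was at 8.97 and 8.95 in the VEGF pool and 8.97 and 8.98 in the control pool, a difference of -0.02 [-0.03, -0.01]. In the pool labelled VEGFR2i it was at 9.29 and 9.27 and in the pool labelled vehicle at 9.14 and 9.17, a step of 0.13 [0.10, 0.15]. Neither pair overlapped, yet the differences were small, and non-overlap of arrays of 2 pools was common: 45.3% of all genes in the buds and 51.0% in the explants did not overlap, against 5 and 6 of the 7 members.

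Spns2 (probe set 10388194), the exporter through which endothelial cells release S1P, was at 6.28 and 6.29 in the VEGF pool and at 6.04 and 5.89 in the control pool. These arrays did not overlap, and the difference was 0.32 [0.24, 0.41], rank 480 from the top. In the explants it was at 5.88 and 5.88 in the pool labelled VEGFR2i and at 5.91 and 5.92 in the pool labelled vehicle, which differ by -0.03 [-0.04, -0.03]. Spns2 thus did not share the difference of the endothelial markers there, all 12 of which differed by more, with a median of 2.42. Against control buds the pool labelled vehicle lay at -0.05 for Spns2 and at a median of -3.22 for the endothelial markers.

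**Figure D2:**
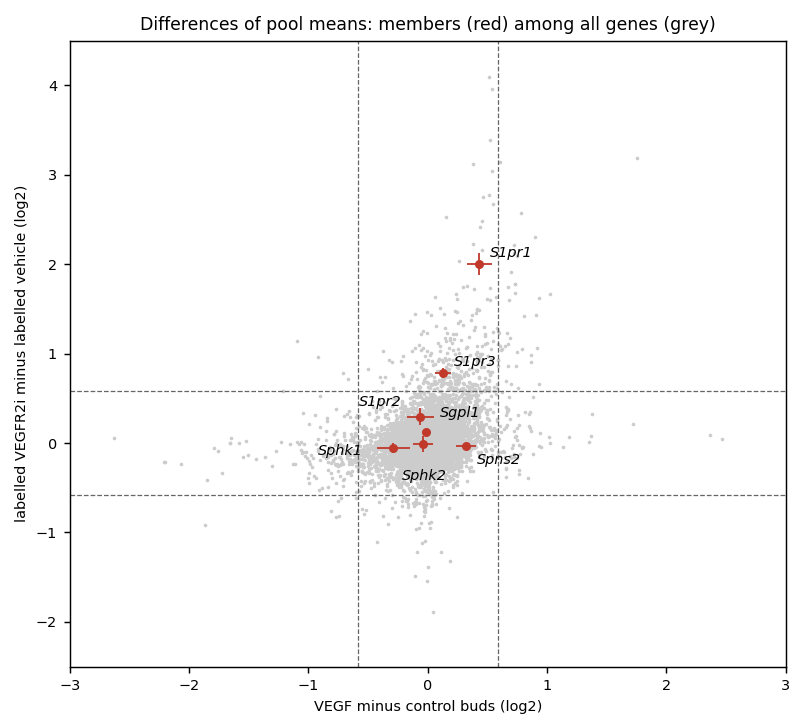
Difference of pool means (log2) in the buds, VEGF minus control, against that in the explants, labelled VEGFR2i minus labelled vehicle, for all 19938 genes (grey) and the 7 members (red, bars spanning the 4 pairs of arrays); dashed lines mark 1.5-fold. S1pr1 (0.43, 2.00) and S1pr3 (0.13, 0.78) lie above the upper dashed line, and the other 5 members lie within the dashed lines on both axes.

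The largest gap between arrays of a single pool over all members and pools was 0.16, for S1pr1 in the pool labelled VEGFR2i. That gap is an array error and no threshold for a difference between pools. The scatter of both differences shows S1pr1 farthest from 0 among the members on either axis, with Spns2 and Sphk1 next in the buds and S1pr3 and S1pr2 next in the explants.

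**Figure D3:**
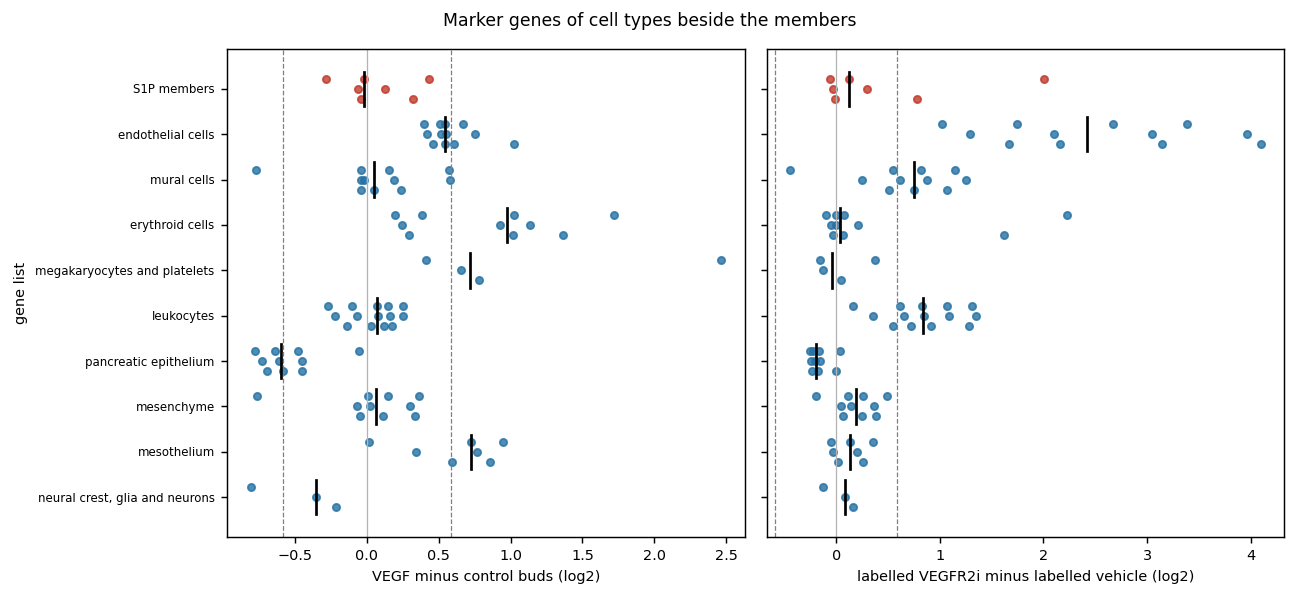
Differences of pool means (log2) of each gene, by list, in the buds (left) and the explants (right); red points are the 7 members, blue points cell type markers, black bars list medians and dashed lines 1.5-fold. In the explants the endothelial markers run from 1.02 to 4.10 and the leukocyte markers from 0.16 to 1.35, and S1pr1 at 2.00 lies within the endothelial range.

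The plot of marker lists places the members beside the cells that the buds hold. In the buds the red cell markers were higher in the VEGF pool, 6 of 10 by the size rule with a median of 0.97, and the platelet markers 3 of 4 with a median of 0.71. Red cells and platelets make and release S1P, and Mfsd2b, their exporter, was at 4.03 and 4.01 in the VEGF pool and at 3.66 and 3.58 in the control pool, a difference of 0.40 [0.35, 0.45] that stayed short of the size rule. In the explants Mfsd2b was at 3.40 and 3.40 against 3.36 and 3.53, near the lower quartile of gene means, 3.34. Of the red cell markers in the explants, 2 of 10 were higher in the pool labelled VEGFR2i, the embryonic globins Hba-x (1.62) and Hbb-y (2.23), and the median was 0.03, with 4 and 5 of the 10 below the lower quartile of gene means. The platelet median there was -0.04 with 0 of 4 past the size rule, and 1 of the 4 lay below that quartile in each pool. Mesothelial markers were higher in the VEGF pool too, 5 of 7, with a median of 0.73, and had a median of 0.14 in the explants with 0 of 7 past it. Leukocyte markers in the buds had a median of 0.07 with 0 of 14 past the size rule, and mesenchymal markers had a median of 0.06 with 1 of 10 lower, Prrx1 (-0.77). Of 3 markers of neural crest, glia and neurons 1 was lower there (Stmn2, -0.81), and none reached the size rule in the explants.

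Of the remaining S1P pathway, sphingolipid enzymes, coupled G proteins and related receptors, 83 genes were listed, 77 were measured and 6 were not analysed here. In the buds 0 of 77 were higher and 1 was lower by the size rule, with a median of 0.02, and in the explants 3 were higher and 0 lower, with a median of 0.02. Against 1.48% and 2.19% of all genes these counts are near the background. The other receptors of the family, S1pr4 of lymphocytes and S1pr5 of natural killer cells and oligodendrocytes, lay between 3.95 and 4.32 and between 3.23 and 3.49 on the 8 arrays, and differed by at most 0.08 either way. S1pr5 thus lay near the lower quartile of gene means, 3.34, and differences of such dim genes are compressed.

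Sgms2, the sphingomyelin synthase of the plasma membrane, was the gene lower in the VEGF pool, at 3.92 and 3.90 against 4.78 and 4.71 in control, a difference of -0.84 [-0.88, -0.79]. In the explants Sgms2 was at 6.99 and 7.002 against 7.47 and 7.50 in the pool labelled vehicle, a step of -0.49 [-0.51, -0.47]. Lpar4, a receptor for the related lipid lysophosphatidic acid, had the largest of the 3 increases in the explants, at 7.87 and 7.97 against 6.68 and 6.85, a difference of 1.15 [1.01, 1.29]. Rhoc, a small GTPase of the cytoskeleton, differed by 0.79 [0.77, 0.82], and Cerk, the kinase that phosphorylates ceramide, by 0.62 [0.51, 0.74]. In the buds Lpar4 differed by 0.28, Rhoc by 0.09 and Cerk by 0.36, all short of the size rule.

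Enzymes around S1P itself did not reach the size rule in either comparison. The phosphatase Sgpp2 differed by -0.33 in the buds and by -0.53 in the explants, and lay 2.18 above control in the pool labelled vehicle, a step across sets in the direction of that of Sphk1. Its paralogue Sgpp1 differed by -0.04 and -0.12, and lay 1.64 above control in the pool labelled vehicle. All 5 listed phosphatases lay above control in that pool, as did 15511 of 19938 genes. The ceramidase Acer2, which releases sphingosine in the Golgi, differed by 0.56 [0.35, 0.78] in the buds and by 0.45 [0.40, 0.51] in the explants, just short of the size rule in the buds. Among genes of receptor turnover the kinase Grk5 differed by 0.29 and 0.55 and the arrestin Arrb1 by 0.08 and 0.43. Klf2, a transcription factor that raises S1pr1 in T cells, differed by 0.01 and -0.11.

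**Figure D4:**
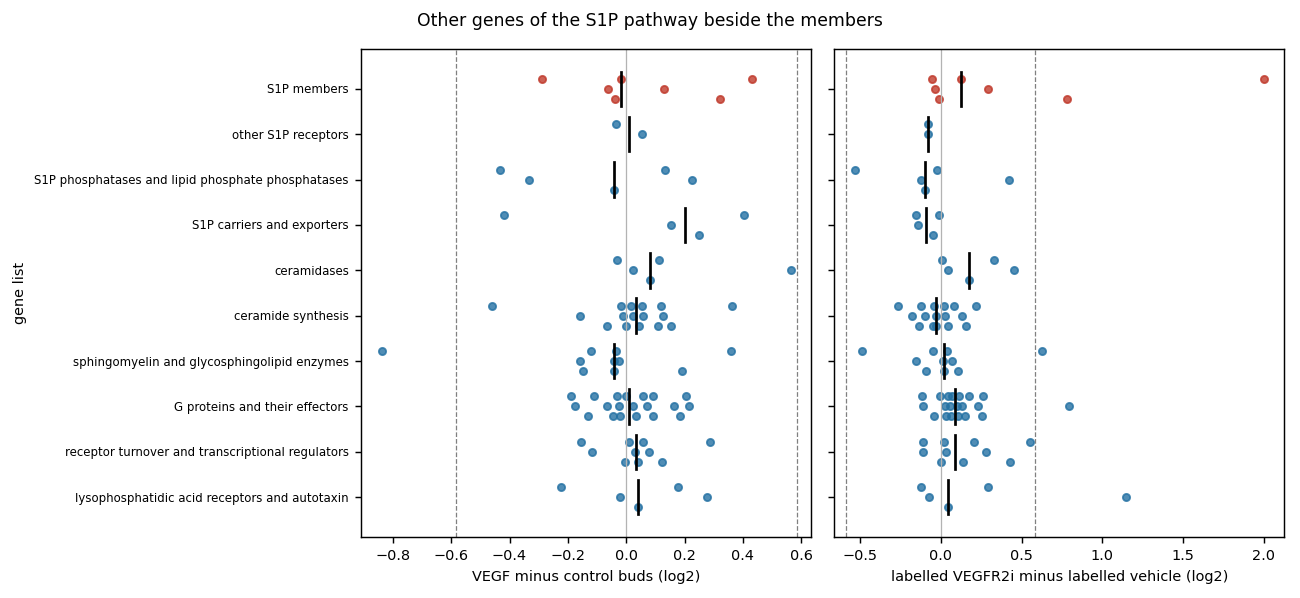
Differences of pool means (log2) of other genes of the S1P pathway by list, in the buds (left) and the explants (right), with the 7 members in red, list medians as black bars and 1.5-fold as dashed lines. In the explants Lpar4 (1.15), Rhoc (0.79) and Cerk (0.62) lie past the upper line beside S1pr1 and S1pr3, and in the buds Sgms2 (-0.84) lies past the lower line.

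The plot of pathway lists shows most genes close to 0 in both comparisons. The 20 genes of G proteins and their effectors measured ran from -0.19 to 0.21 in the buds and from -0.12 to 0.79 in the explants. The 5 phosphatases had medians of -0.04 in the buds and -0.10 in the explants, the 5 ceramidases 0.08 and 0.17, and the 4 carriers and exporters 0.20 and -0.09. In the buds the carriers and exporters went both ways, 3 being positive and 1 negative, Abca1 (-0.42). Their summed level differed there by -0.21 (log2), opposite in sign to their median. Medians were -0.04 and 0.02 for the 10 sphingomyelin and glycosphingolipid enzymes, 0.03 and 0.08 for the 10 genes of receptor turnover and its regulators, and 0.04 and 0.05 for the 5 lysophosphatidic acid receptors. The 16 genes of ceramide synthesis ran from -0.46 (Cers6) to 0.36 (Sptssb) in the buds and from -0.27 to 0.22 in the explants.

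The genes with patterns most like those of S1pr1 and S1pr3 were ranked by root mean square distance over the 8 arrays, after each gene's mean within buds and within explants was taken away. For S1pr1 they were Hbb-y, Fli1, Cldn5, Gimap6 and Ebf1, at distances of 0.11 to 0.13. Hbb-y differed by 0.38 in the buds and 2.23 in the explants, Cldn5 by 0.46 and 2.16, and Gimap6 by 0.73 and 2.13. For S1pr3 they were Tns2, Shisa3, Timp3, Sh3kbp1 and Frmd4a, at distances of 0.02 to 0.05. Tns2 was the nearest, with differences of 0.13 and 0.77. These lists describe 4 pools, and the values of a pool's arrays share 1 RNA.

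**Figure D5:**
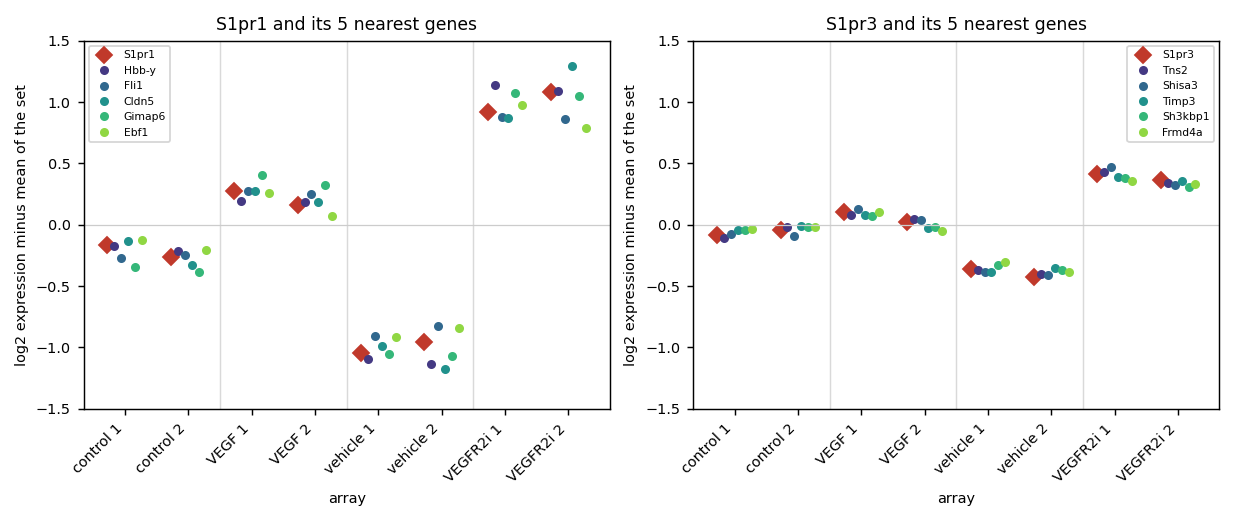
Log2 expression minus the gene's mean over the 4 arrays of its set, for S1pr1 (left) and S1pr3 (right) as red diamonds and their 5 nearest genes as circles, on each of the 8 arrays. The genes near S1pr1 lie about 1 below and above 0 on the explant arrays, and those near S1pr3 about 0.4 below and above.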

How the data were processed

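RNA of 4 pools was hybridized to 8 Affymetrix whole-transcript arrays. The authors deposited log2 values, made with RMA in Partek Genomic Suite 6.5 per the labels and the design text, and their range of 2.41 to 13.57 is that of a log2 scale. RMA compresses differences of dim genes and sets no absolute level. Gene names came from the platform's annotation table. Of 35399 probe sets, 21789 had exactly 1 symbol, and for 999 genes with several probe sets the highest mean over the 8 arrays was kept, leaving 19938 genes. Array medians were 4.08 to 4.12 in the buds and 4.29 to 4.33 in the explants, and arrays of a pool correlated at 0.997 to 0.998 across probe sets. Between arrays of a pool 4 to 25 genes differed by 1.5-fold. The number of arrays limits the precision.

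Pools were averaged over their arrays and compared within a set by the size rule. The rule was also run on simulated arrays built from the levels and array SDs of these data. These hold array error only, so they cannot show how often the rule errs between single pools. Named genes are the members and list genes past the size rule (at most 6 per list and comparison). The 5 nearest genes of each called member, Cdh5 and Kdr are also named. S1pr4, S1pr5, Mfsd2b, Sgpp1, Sgpp2, Acer2, Grk5, Arrb1, Klf2, Cers6, Sptssb, Abca1, Tagln and Acta2 were added with their values known. The members, lists and motifs were chosen with earlier results of these data known. Promoter sequences are from RefSeq (GRCm38.p6); 6 of 7 members matched. The authors' t-test was rerun on the arrays, as was limma 3.58.1. Python 3.11.15 was used.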

Additional observations from a re-analysis of the deposited data

How the results depend on the processing

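No paired analysis was possible because each group is 1 pool and the labels number no replicates. S1pr1 and S1pr3 passed the size rule in the explants, and no member did in the buds, under median centring, quantile normalization, averaging of probe sets, linear averaging, a filter on dim genes and limma on the arrays. Leaving out each array in turn kept 0 members in the buds and 2 in the explants, with S1pr1 at 0.37 to 0.49 and 1.92 to 2.08 and totals of 300 to 337 and 428 to 483 genes. At a threshold of 0.3219 in log2 units 1 member, S1pr1, was called in the buds, and totals were 1030 and 1254 genes. Spns2, at 0.3214 in the buds, missed that threshold narrowly. At 2-fold 1 member, S1pr1, was called in the explants, and totals were 50 and 133. The methods' t-test and limma, each with 1.5-fold, took the arrays of a pool as repeats, so both measure hybridization error only. Unadjusted, the t-test called 271 and 405 genes, with 0 and 2 members. After Benjamini-Hochberg adjustment it called 0 and 1 genes and 0 members, against 294 and 435 genes by limma. Of the 7 members, the sign of Sphk2 alone changed with these scalings or left-out arrays, between -0.11 and 0.03 in the buds and between -0.07 and 0.05 in the explants.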
